A study of Capra hircus with 20 samples.

Results

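The goat annotation lists 932 transcripts of the lncRNA type among the annotated non-coding RNAs measured in these cells, and 360 of them averaged at least 1 FPKM over all 20 libraries. These 360 annotated lncRNAs, which belong to 305 genes, are described here over intramuscular preadipocytes (IMPA), intramuscular adipocytes (IMA), subcutaneous preadipocytes (SPA) and subcutaneous adipocytes (SA). FPKM, fragments per transcript length and per library size, is a level per length, so levels of different transcripts can be set side by side. The members were chosen by their measured mean, which is a description and not a result. The members just inside the limit were XR_001917748.1 (LOC108635094) at 1.015 FPKM and XR_309813.3 (LOC102176474) at 1.017 FPKM, and the transcripts just outside it were XR_001918975.1 at 0.9955 FPKM and XR_001918079.1 at 0.9954 FPKM. Of the 572 lncRNAs left out, 119 reached a mean of 1 FPKM in at least 1 of the 4 groups and none was at 0 in all 20 libraries. Of the 360 members, 272 had a mean of at least 1 FPKM in all 4 groups, 22 stayed under 1 FPKM in both subcutaneous groups and 27 stayed under 1 FPKM in both intramuscular groups. The last 49 members met the limit through a single cell type and had to differ between the cell types, so such a difference is given below as values and fold changes without a p value. The same holds for a change over induction, or an interaction, of a member whose mean would be under 1 FPKM with the higher group at the level of the lower one. Such members are behind 5 of the called rises and 1 of the called falls of the intramuscular cells, 2 of the called falls of the subcutaneous cells and 7 of the called interactions. By the same rule, they are behind 7 of the members called higher in IMPA and 16 of those called higher in SPA. On day 3 they are behind 9 of those called higher in IMA and 14 of those called higher in SA. The counts of depot differences below include them.

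All cells came from 5 male Jianzhou Daer goats of 7 days of age. Intramuscular cells were isolated from the longissimus dorsi muscle and subcutaneous cells from subcutaneous fat, both were grown in DMEM/F12 with 10% fetal bovine serum, and cells of passage 3 were used. IMPA and SPA were harvested on day 0, and IMA and SA after 3 days in the same medium with oleic acid, a fatty acid given to start lipid storage. Each group held 5 libraries, numbered 1 to 5. The labels do not say whether equal numbers in different groups stand for the same goat, so p values measure the spread between these libraries. The model is a mixed primary isolate by digestion and attachment, without a sorting step in the protocols used here.

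Long non-coding RNAs (lncRNAs) are transcripts longer than the classes of small RNA, often spliced and capped like mRNAs, that carry no long reading frame. Some lncRNAs act where they are made, on chromatin or on the transcription of genes beside them, as in X inactivation and genomic imprinting. Others act in trans in the nucleus or cytoplasm, serve as host transcripts from which microRNAs or small nucleolar RNAs are cut, or have no known function. In fat and muscle, lncRNAs have been tied to the commitment of progenitors and to the timing of differentiation. Because lncRNA sequences change fast between species, most goat lncRNAs carry only a locus number (LOC), and their place beside coding genes of known function is often the only clue to what they are. The place of each gene was taken from the gene order of the RefSeq annotation of the goat, in which 284 of the 305 member genes stand on a chromosome. None of the 305 genes has the established name of a known lncRNA. A set of 35 members from 17 genes carries the symbol of a coding gene such as RPL37A, TTC9 or HNRNPF, and none of these symbols has a row among the mRNAs measured, so those members stand for non-coding models of loci that elsewhere code for a protein.

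The FPKM of all transcripts of a library added up to between 527426 and 596669, of which the 360 members held 0.929% to 1.07%, and between 348 and 357 of them were above 0 in a library. Fragment counts are not part of the values, so the depth behind each value is unknown. The share of reads mapped to the genome differed between the groups in the study's alignment summary, most of all between IMPA and the rest. It did not overlap between the groups of any pairwise comparison made here, so it cannot be told apart from stage or cell type. Markers of skeletal muscle followed the cell type. The FPKM of 18 marker genes of muscle (of 20 listed) summed to between 3662 and 4193 in IMPA, 13294 and 14096 in IMA, 19.2 and 36.6 in SPA and 11.6 and 14.3 in SA, and all 18 were higher in the intramuscular cells on both days. Among the defining muscle regulators, MYOG lay between 582 and 774 FPKM in intramuscular libraries and at most at 0.619 FPKM in subcutaneous libraries, and MYOD1 was listed at 0 in all SPA libraries. Adipocyte markers (9 of 10 listed) summed to between 14.4 and 18.4 FPKM in every group. Among them PPARG stood at most at 1.26 FPKM, ADIPOQ at most at 0.596 FPKM and PLIN1 at most at 0.438 FPKM, and CEBPA and FASN reached 9.85 and 5.51 FPKM. CD36 had means of 0.252 FPKM in IMPA, 4.91 in IMA, 0.0679 in SPA and 0.934 in SA. CIDEC had means of 0.333 FPKM in IMPA, 0.318 in IMA, 4.65 in SPA and 4.35 in SA. Of the 4 adipocyte markers tested, 1 was called higher and 1 lower in IMPA than in SPA, and 2 higher and 2 lower in IMA than in SA. Markers of stromal progenitors (9 genes) summed to between 4430 and 11548 FPKM, most of it COL3A1 and DCN, while CD34 stayed at or under 0.839 FPKM and DLK1 at or under 0.269 FPKM. Of these 9 genes 7 were tested. Of the 7, 4 were called lower in IMPA than in SPA, and 4 were called lower and 1 higher in IMA than in SA. The shares called lower over all transcripts were 21.6% and 27.1%, and 19.3% were called higher in IMA than in SA. Leukocyte markers (5 of 6 listed) summed to 4.39 to 8.34 FPKM in IMPA, 9.73 to 12.4 in IMA, 15.4 to 18.2 in SPA and 13.0 to 15.7 in SA. Most of this was CD14, with a mean of 5.91 FPKM in IMPA and 14.5 FPKM in SPA, whereas PTPRC did not exceed 0.011 FPKM. Of the 5 genes 2 were tested, and these 2 were called lower in IMPA than in SPA. Cell cycle genes (10 listed) summed to 175 to 213 FPKM in IMPA, 152 to 184 in IMA, 84.8 to 97.0 in SPA and 368 to 409 in SA. Of the 10, 9 were called higher in IMPA than in SPA and 9 lower in IMA than in SA, against 29.3% and 27.1% of all transcripts. The part that myogenic, stromal or myeloid cells and cell division have in any lncRNA difference given below was not tested, and in these bulk samples fewer cells of a type and less RNA per cell cannot be told apart.

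Levels spread over 3 orders of magnitude and a few members made up most of the signal. The median of the 360 means was 2.59 FPKM and the highest 1483 FPKM, 55 members reached 10 FPKM, 6 reached 100 FPKM, and 136 lay between 1 and 2 FPKM. In each library the 2 most abundant members together held 45.2% to 54.5% of the members' FPKM. The spread between replicates fell with the level, since the median coefficient of variation within a group was 21.8% for members of 1 to 2 FPKM, 14.2% for those of 2 to 10 FPKM and 7.24% for those of 10 FPKM or more. Of all members, 326 were above 0 in every library and 34 were listed at 0 in at least 1.

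The most abundant annotated lncRNA was XR_001295696.2 of LOC102168701, which stands between ZC3H10 and PA2G4. Its FPKM was 1689.5, 1547, 1813, 1629 and 1623 in IMPA libraries 1 to 5, 1461, 1216, 1309, 1273 and 1248 in IMA, 1179, 1153, 1326, 1436 and 1168 in SPA and 1563, 1639, 1786, 2003 and 1597 in SA. All IMA values lay under all IMPA values and all SA values over all SPA values, so this transcript moved in opposite directions over induction in the 2 cell types. In human, the same interval holds RPL41, a ribosomal protein gene with a very short reading frame, and whether LOC102168701 is its goat counterpart was not tested. The log2 difference was -0.35 (95% CI -0.48 to -0.22, adjusted p = 0.00126) for IMA against IMPA and 0.46 (95% CI 0.26 to 0.65, adjusted p = 0.0039) for SA against SPA, and the difference between these changes was -0.81 (95% CI -1.03 to -0.59, adjusted p = 7.4e-06). Here and below, the test is limma's moderated test on log2(FPKM + 1), two-sided and adjusted over 18414 transcripts, and a called transcript has an adjusted p under 0.05. A value printed with an adjusted p is a difference in mean log2(FPKM + 1). RPL37A, which carries the symbol of a ribosomal protein gene, came next with 1246 ± 32.7 FPKM in IMPA (SD, n = 5 in each group), 1189 ± 30.6 in IMA, 1227 ± 50.6 in SPA and 1381 ± 91.1 in SA.

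The other 6 of the 8 most abundant members had lower means, and 3 of those described here stand in intervals that hold host genes of small nucleolar RNAs in human. LOC102189880 (next to ZNFX1, where human has ZFAS1) had 324 ± 7.13, 312 ± 11.8, 288 ± 14.7 and 305 ± 18.6 FPKM in IMPA, IMA, SPA and SA. Every IMPA library lay over every SPA library for this member. LOC102171315 (between NDST3 and PRSS12, where human has SNHG8) measured 188, 171, 187, 166 and 188 FPKM in IMPA, 159.6, 144, 181, 161 and 167 in IMA, 140.1, 116, 125, 109 and 124 in SPA and 193, 207, 224, 169.8 and 193 in SA. SPA held the 5 lowest values and no SPA library reached the level of any other group. LOC102171315 rose in the subcutaneous cells by 0.68 (95% CI 0.49 to 0.87, adjusted p = 2.4e-04) on the log2 scale, and IMA differed from IMPA by -0.15 (adjusted p = 0.098). LOC102178647 measured 80.1 ± 3.78 FPKM in IMPA, 69.7 ± 2.63 in IMA, 51.7 ± 3.72 in SPA and 67.7 ± 3.81 in SA. It fell in the intramuscular cells (-0.20, adjusted p = 0.00375) and rose in the subcutaneous cells (0.38, adjusted p = 6.0e-04). C15H11orf31 also had its lowest mean in SPA, at 92.5 ± 9.96, 76.2 ± 8.93, 54.8 ± 6.11 and 88.5 ± 9.13 FPKM in IMPA, IMA, SPA and SA, with a rise in the subcutaneous cells of 0.68 (adjusted p = 3.5e-04), a difference of -0.28 (adjusted p = 0.0549) in the intramuscular cells and an interaction of -0.96 (adjusted p = 2.1e-05). With the mapped share of reads in the fit the interactions were -0.69 for LOC102168701, -0.25 for C15H11orf31, -0.31 for LOC102171315 and -0.37 for LOC102178647, none of them called. LOC102190274 (between ATRIP and CCDC51) and LOC102177673 (next to NEU1, where human has SNHG32) had means of 142 to 161 FPKM and 97.3 to 116 FPKM over the 4 groups. Whether any of these loci is the goat counterpart of the human host gene was not tested.

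The comparison of intramuscular with subcutaneous cells asks which annotated lncRNAs set the depots apart before and after induction. On day 0, 64 of the 360 members were higher in IMPA and 104 higher in SPA, where 29.3% and 21.6% of all 18414 transcripts were called in these directions and 50.9% in either. As shares of the 360 members these were 17.8%, 28.9% and 46.7%. The 5 libraries of the groups did not overlap for 52 members higher in IMPA and 81 higher in SPA, against 24.3% and 17.7% of all transcripts. On day 3, 68 members were higher in IMA and 90 higher in SA, against 19.3% and 27.1% of all transcripts (46.3% in either direction), and the libraries did not overlap for 60 and 69 members, against 16.1% and 21.7%. The median log2 difference over the members was -0.0782 for IMPA against SPA and -0.0537 for IMA against SA, beside 0.0598 and -0.0855 over all transcripts. A change of at least 1 on the log2 scale was called for 38 members on day 0 (17 higher in IMPA, 21 higher in SPA) and for 42 on day 3 (26 higher in IMA, 16 higher in SA), where the shares of all transcripts were 8.36% and 5.41% on day 0 and 7.91% and 5.12% on day 3. A fit that also held each library's mapped share of reads called 12 members higher and 8 lower on day 0, against 4.16% and 3.14% of all transcripts, and 39 and 35 on day 3, against 11.7% and 16.2%.

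**Figure D1:**
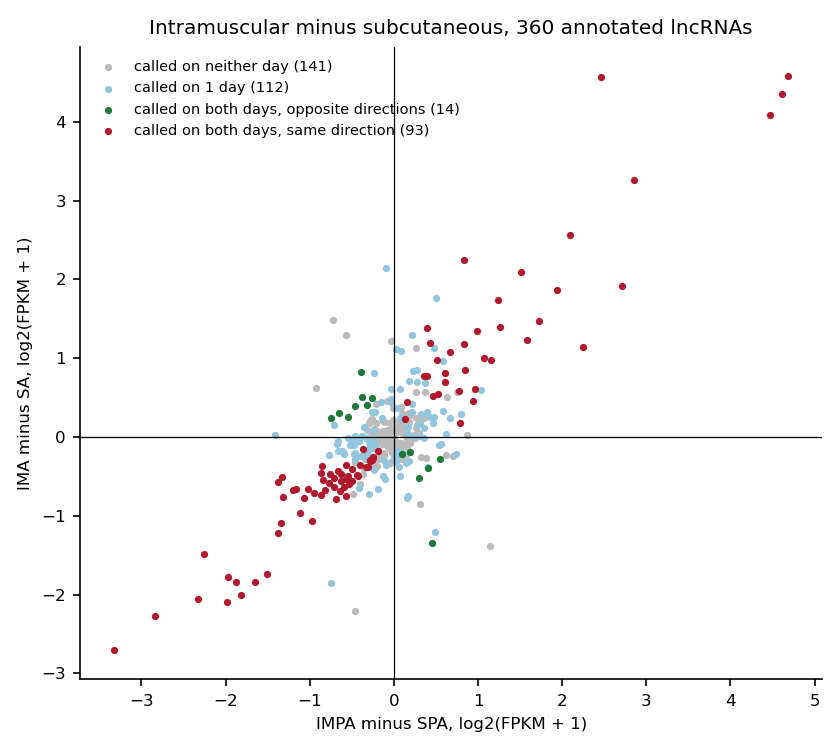
Each point is an annotated lncRNA; the x axis is its mean log2(FPKM + 1) in IMPA minus SPA and the y axis IMA minus SA, with 5 libraries per group. The 93 members called on both days in the same direction (red) reach the ends of both axes, and 14 members called on both days in opposite directions (green) lie near the origin.

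The depot differences were largely shared by the days, which have no library in common. Cells of both days came from the same 5 goats, so day 3 is not an independent repeat of day 0. Both days called 36 members higher in the intramuscular cells, against 14.5% of all transcripts, and 57 higher in the subcutaneous cells, against 13.8%. Of these, 33 and 45 had no overlap between the libraries on either day, against 11.9% and 10.9% of all transcripts. Another 14 members, against 4.76% of all transcripts, were called in opposite directions on day 0 and day 3, LOC102168701 and LOC102171315 among them. Over the 360 members the day 0 and day 3 differences had a Pearson correlation of 0.803, and over all transcripts of 0.764; these are descriptions across transcripts that share libraries within a day.

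Restriction to a depot was rare. A member counted as restricted when every library of the other cell type lay under 0.1 FPKM and its own cell type had a mean of at least 1 FPKM. The intramuscular cells had 5 restricted members from 4 genes and the subcutaneous cells 1, beside 1.49% and 0.147% of all transcripts. With 0.5 FPKM in place of 0.1 the numbers were 10 and 2, and with every library of the other depot at 0 they were 1 and 1.

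**Figure D2:**
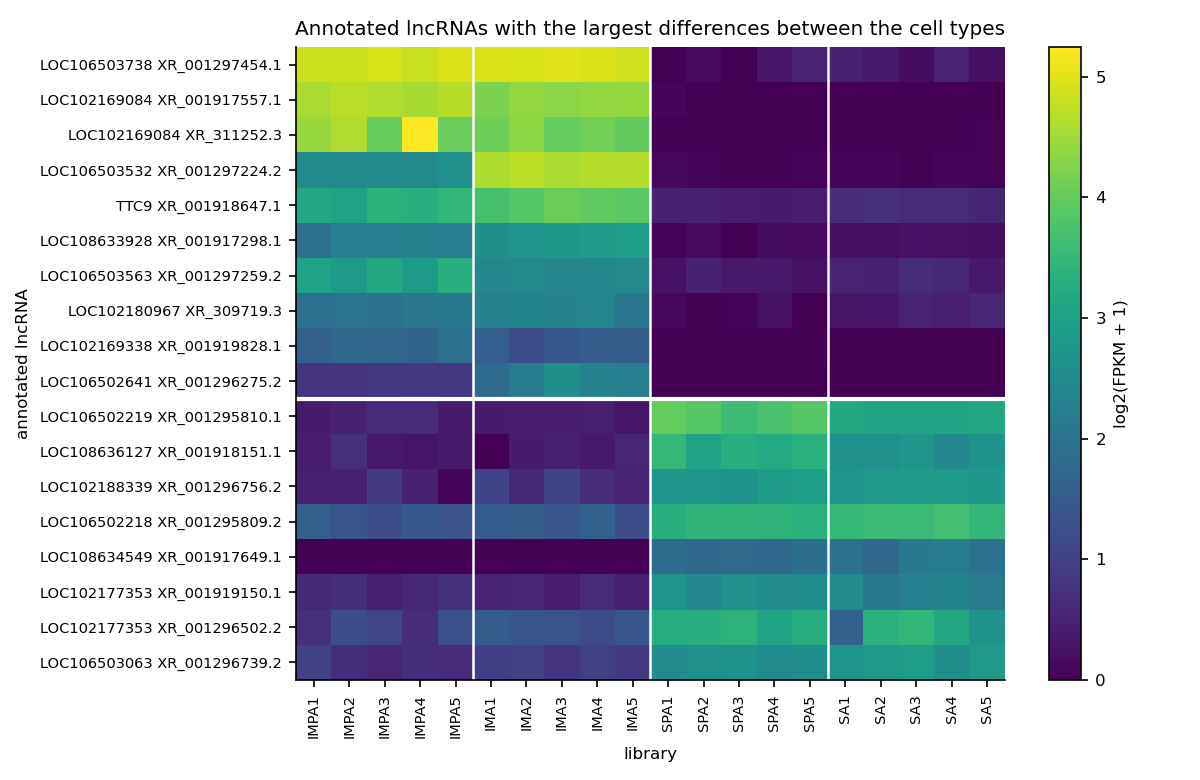
Rows are the 10 intramuscular-high and 8 subcutaneous-high annotated lncRNAs that had the highest depot differences or were restricted, columns are the 20 libraries, and colour is log2(FPKM + 1). LOC108634549 is at 0 in all 10 intramuscular libraries, and LOC106502641 is at 0 in all 10 subcutaneous libraries.

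The highest restricted members were both transcripts of LOC102169084, on the X chromosome between ZCCHC13 and CHIC1. XR_001917557.1 measured 23.1, 24.9, 23.5, 22.5 and 24.8 FPKM in IMPA and 17.6, 20.01, 19.2, 19.9 and 20.5 in IMA. In the subcutaneous cells the same transcript was listed at 0 in 8 of 10 libraries, with 0.0662 FPKM in SPA1 and 0.00737 in SA3. XR_311252.3 measured 20.7, 23.5, 15.4, 37.0 and 15.5 FPKM in IMPA, 16.1, 19.5, 15.0, 16.5 and 14.8 in IMA and at most 0.0375 FPKM in any subcutaneous library. Every intramuscular library was thus far above every subcutaneous library for both transcripts, and IMPA4 was the highest library for XR_311252.3. Over induction XR_001917557.1 fell in the intramuscular cells, with a log2 difference of -0.28 (95% CI -0.38 to -0.17, adjusted p = 0.00163). In other mammals this interval is the X inactivation centre, which makes XIST, the RNA that coats and silences an X chromosome in female cells, and FTX, the host of the miR-374 and miR-545 family. The identity of LOC102169084 was not tested, and the donors were given as males. Beside it stands LOC102191314, with MIR374A, MIR545 and MIR374B close by, and its 3 members were not restricted. XR_001917554.1 of LOC102191314 measured 4.33 ± 0.785, 4.57 ± 0.758, 3.18 ± 1.00 and 2.44 ± 0.174 FPKM in IMPA, IMA, SPA and SA, and was higher in IMA than in SA (0.68, adjusted p = 3.3e-04). X-linked genes looked up after the values of LOC102169084 were seen gave a mixed picture. EIF2S3, a translation initiation factor, had means of 71.9, 70.2, 39.3 and 35.8 FPKM in IMPA, IMA, SPA and SA and was called higher in the intramuscular cells on both days. KDM6A, a histone demethylase, had 6.64, 5.92, 2.57 and 4.23 FPKM and DDX3X, an RNA helicase, 106, 105, 88.2 and 77.6 FPKM, both called on day 0 alone, and KDM5C was called on neither day. Over 404 X-linked transcripts tested, the median log2 difference was 0.030 on day 0 and -0.037 on day 3. The part of the X chromosome in these values was not tested.

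A second locus with intramuscular lncRNAs was the interval between RTL1 and DIO3, which in mammals belongs to an imprinted domain with a long cluster of microRNAs expressed from the maternal chromosome. Its members were looked up together after their values were seen. LOC102169338, restricted by the rule above and next to MIR656, measured 2.04, 2.35, 2.31, 2.19 and 2.81 FPKM in IMPA and 1.97, 1.36, 1.73, 1.94 and 1.91 in IMA. It was listed at 0 in 9 of 10 subcutaneous libraries and at 0.0216 FPKM in SPA5. LOC108638533, close to MIR127, MIR432 and MIR136, measured 1.56, 1.17, 1.73, 1.80 and 1.55 FPKM in IMPA, 2.71, 3.13, 2.89, 3.42 and 3.14 in IMA, 0.0698, 0.0960, 0.0929, 0.0631 and 0.0775 in SPA and 0.111, 0.256, 0.279, 0.246 and 0.176 in SA. The 4 groups of LOC108638533 did not overlap each other. The log2 difference over induction was 0.67 in the intramuscular cells and 0.17 (95% CI 0.08 to 0.25, adjusted p = 0.01) in the subcutaneous cells. At the low subcutaneous levels the 1 added to each FPKM shrinks the change, so these sizes do not rank the fold changes. LOC102168946 measured 1.22, 1.86, 1.43, 1.15 and 4.64 FPKM in IMPA and 3.52, 2.45, 3.39, 1.58 and 8.03 in IMA, was at 0 in 9 of 10 subcutaneous libraries and had 0.119 FPKM in SA3. In both intramuscular groups library 5 was the highest for LOC102168946, by a wide margin. The coding gene at the end of the interval, DIO3, which inactivates thyroid hormone, had means of 2.65 FPKM in IMPA, 1.46 in IMA, 0 in SPA and 0.0219 in SA.

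The largest log2 difference between the depots on both days was that of LOC106503738, next to PTPN5. XR_001297454.1 measured 27.7, 27.8, 29.3, 26.9 and 30.4 FPKM in IMPA, 30.1, 29.4, 30.6, 30.2 and 28.1 in IMA, 0, 0.118, 0, 0.224 and 0.412 in SPA and 0.406, 0.300, 0.121, 0.419 and 0.169 in SA. The lowest intramuscular library stood over the highest subcutaneous library by more than an order of magnitude, with log2 differences of 4.69 on day 0 and 4.59 on day 3, and no change over induction was called (IMA against IMPA 0.06, 95% CI -0.03 to 0.15, adjusted p = 0.267). PTPN5 itself, a tyrosine phosphatase, had means of 7.28 FPKM in IMPA, 3.95 in IMA, 0.0164 in SPA and 0 in SA.

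Several intramuscular lncRNAs rose further over induction. LOC106503532 lies between GATA6 and MIB1, and in human a pair of muscle microRNAs lies within MIB1. XR_001297224.2 measured 4.65, 4.62, 4.80, 4.59 and 5.19 FPKM in IMPA and 23.4, 25.5, 22.9, 24.2 and 24.4 in IMA, and between 0.0165 and 0.0822 FPKM in the 10 subcutaneous libraries. Its means differed 5.04-fold between IMA and IMPA, and no subcutaneous library came near either group. TTC9 rose in both cell types, from 8.72 ± 1.13 to 14.0 ± 1.3 FPKM in the intramuscular (0.63, adjusted p = 5.6e-04) and from 0.340 ± 0.0423 to 0.560 ± 0.0729 FPKM in the subcutaneous cells (0.22, adjusted p = 0.00284). LOC108633928, next to SRL, the gene of the calcium-binding sarcalumenin of the sarcoplasmic reticulum, rose from 3.61 ± 0.458 to 5.90 ± 0.581 FPKM (0.58, adjusted p = 9.4e-04) and lay between 0 and 0.188 FPKM in the subcutaneous libraries. SRL itself had means of 19.2 FPKM in IMPA, 51.5 in IMA, 0.552 in SPA and 0.567 in SA. LOC102180967, next to CD200, a surface protein that restrains myeloid cells, had 3.06 ± 0.243, 3.88 ± 0.457, 0.0603 ± 0.0738 and 0.340 ± 0.115 FPKM in IMPA, IMA, SPA and SA. LOC106503563 went the other way and fell over induction. It stands next to SOX8, a transcription factor of neural crest and satellite cells, and measured 7.27, 6.11, 8.07, 6.23 and 8.90 FPKM in IMPA and 4.36, 4.58, 4.22, 4.39 and 4.55 in IMA, with at most 0.581 FPKM in a subcutaneous library. IMA lay under IMPA without overlap (-0.61, 95% CI -0.82 to -0.40, adjusted p = 9.2e-04), as did SOX8, which had means of 14.3 and 7.28 FPKM (-0.88, adjusted p = 3.8e-05). The mapped share of reads, once added to the fit, left a difference of 0.004768 for LOC106503563.

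The members with the highest differences on the subcutaneous side follow. LOC106502219 and LOC106502218 lie in the same interval between EPGN and the genes CXCL8 and PPBP, which encode chemokines, small secreted proteins that attract leukocytes. XR_001295810.1 of LOC106502219 measured 0.293, 0.402, 0.532, 0.539 and 0.305 FPKM in IMPA, 0.309, 0.345, 0.330, 0.366 and 0.249 in IMA, 15.0, 13.7, 11.2, 12.4 and 13.7 in SPA and 8.16, 7.32, 7.37, 7.39 and 7.87 in SA. Its SPA mean was 31.8 times the IMPA mean, and it fell over induction in the subcutaneous cells without overlap (-0.71, 95% CI -0.87 to -0.55, adjusted p = 6.6e-05). LOC106502218 had 1.64 ± 0.267 FPKM in IMPA, 1.78 ± 0.287 in IMA, 9.40 ± 0.464 in SPA and 10.8 ± 0.637 in SA and rose slightly (0.19, adjusted p = 0.0193). The coding gene between them, LOC102182115, had means of 17.5, 14.1, 133 and 86.8 FPKM in IMPA, IMA, SPA and SA, so all 3 genes had their higher means in the subcutaneous cells.

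LOC108636127 stands next to DCN, which encodes decorin, a small proteoglycan that binds collagen fibrils. XR_001918151.1 measured 10.3, 7.09, 8.85, 8.25 and 9.19 FPKM in SPA and 5.23, 5.18, 5.62, 4.38 and 5.50 in SA, and at most 0.641 FPKM in an intramuscular library. SA lay under SPA without overlap (-0.65, 95% CI -0.86 to -0.44, adjusted p = 7.1e-04). DCN showed the same order, with means of 260.1, 226, 3852 and 2902 FPKM for its most abundant transcript in IMPA, IMA, SPA and SA and a fall over induction in the subcutaneous cells (-0.41, adjusted p = 2.2e-04). LOC102188339, close to MT3 and MT4, which encode metal-binding metallothioneins, had 0.414 ± 0.282, 0.725 ± 0.323, 5.98 ± 0.548 and 6.10 ± 0.373 FPKM in IMPA, IMA, SPA and SA. Both transcripts of LOC102177353, next to EFCAB1, were high in SPA (4.98 ± 0.417 and 8.57 ± 0.788 FPKM) and low in IMPA (0.523 ± 0.106 and 1.03 ± 0.407 FPKM). EFCAB1 had means of 0.892 FPKM in IMPA and 9.502 in SPA. LOC106503063, next to MIF, a secreted inflammatory cytokine, measured 0.472 to 1.02 FPKM in IMPA, 0.7497 to 1.03 in IMA, 4.76 to 5.43 in SPA and 5.01 to 6.61 in SA, whereas MIF was higher in SPA than in IMPA (-0.40, adjusted p = 1.9e-04 for IMPA against SPA) and lower in SA than in IMA (0.31, adjusted p = 0.00611 for IMA against SA).

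LOC108634549 was the single subcutaneous member restricted by the rule. XR_001917649.1 was listed at 0 in all 10 intramuscular libraries and measured 2.61, 2.41, 2.53, 2.40 and 2.72 FPKM in SPA and 2.92, 2.39, 3.29, 3.61 and 2.95 in SA. SPA and SA overlapped (0.18, 95% CI -0.02 to 0.38, adjusted p = 0.172 for SA against SPA). Its gene is not placed on a chromosome in the annotation, so no neighbour can be named.

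Position along the body axis is recorded in fat and muscle progenitors by patterning genes, among them the HOX clusters, and members next to such genes were listed whatever their values. Of the members described here, those beside IRX3 with IRX5 and beside TWIST2 come first. LOC102184183, between IRX3 and IRX5, measured 15.0, 14.9, 15.2, 14.8 and 14.8 FPKM in IMPA, 13.0, 14.5, 12.9, 14.4 and 14.4 in IMA, 7.40, 7.05, 7.45, 6.96 and 7.58 in SPA and 8.78, 11.1, 11.5, 8.06 and 10.1 in SA. All intramuscular libraries lay over all subcutaneous libraries. The difference was 0.94 (95% CI 0.87 to 1.02, adjusted p = 7.4e-09) on day 0 and 0.45 (95% CI 0.25 to 0.66, adjusted p = 0.00237) on day 3, and SA rose over SPA (0.39, adjusted p = 0.0104). IRX3 and IRX5, homeobox factors that act in limb and fat development, had means of 14.0 and 5.14 FPKM in IMPA and 4.19 and 1.75 FPKM in SPA. LOC102179832, between TWIST2 and ASB1, measured 10.8, 13.8, 11.7, 13.4 and 12.9 FPKM in IMPA, 19.4, 16.5, 14.9, 17.0 and 19.2 in IMA, 32.7, 35.1, 32.9, 33.4 and 35.5 in SPA and 23.8, 25.3, 29.2, 26.9 and 26.2 in SA. The 4 groups did not overlap and drew nearer over induction, with a rise in the intramuscular cells (0.45, adjusted p = 0.00323), a fall in the subcutaneous cells (-0.36, adjusted p = 6.5e-04) and an interaction of 0.80 (95% CI 0.59 to 1.02, adjusted p = 6.3e-06). TWIST2, a repressor of muscle and fat differentiation, had means of 5.08, 6.20, 30.7 and 21.3 FPKM in IMPA, IMA, SPA and SA. In a fit with the mapped share of reads, the intramuscular change of LOC102179832 was -0.06658 and its interaction 0.37, neither called.

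Some members lie inside HOX clusters. LOC108635995 (HOXC8 to HOXC9) was lower in IMPA than in SPA, with a log2 difference of -0.29 (adjusted p = 0.0137) that was -0.003704 with the mapped share in the fit. LOC102190854 (HOXC9 to HOXC10) was higher in IMA than in SA by 0.37 (adjusted p = 0.00549), with an interaction of 0.33 (adjusted p = 0.0247). LOC108635847 (HOXA3 to HOXA4) was higher in IMA than in SA by 0.44 (adjusted p = 0.0224), with an interaction of 0.59 (adjusted p = 0.0173) that was -0.04878 with the mapped share in the fit.

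The comparison of IMA with IMPA asks which annotated lncRNAs changed as intramuscular cells were induced. Of the 360 members 67 rose and 42 fell, against 11.7% and 20.9% of all transcripts, so 18.6% of the members rose and 11.7% fell. The libraries did not overlap for 52 members that rose and 34 that fell, against 9.43% and 16.4% of all transcripts. The median log2 difference was 0.0537 over the members and -0.0782 over all transcripts, and 6 members had a called change of at least 1 on the log2 scale, against 3.08% of all transcripts. With upper-quartile scaling 82 members rose and 28 fell, which put the share of rises at 74.5% in place of 61.5%. Once the mapped share of reads was added to the fit, 3 members rose and 0 fell, against 1.24% and 0.369% of all transcripts.

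The members named next had the largest changes among called members without overlap between the groups. LOC108635993 stands beside MYF6, a myogenic regulatory factor that acts late in muscle differentiation. XR_001918022.1 measured 0.340, 0.664, 0.483, 0.414 and 0.423 FPKM in IMPA, 3.92, 3.84, 3.79, 4.18 and 4.39 in IMA, 0.651, 0.349, 0.802, 0.597 and 0.435 in SPA and 0.283, 0.119, 0.111, 0.164 and 0 in SA. IMA stood apart from all other groups, and SA held the 5 lowest values. On day 0 IMPA and SPA overlapped. The log2 difference of IMA from IMPA was 1.78. MYF6 rose in the same cells, from 4.00 ± 0.318 to 20.3 ± 1.66 FPKM (2.09, adjusted p = 3.0e-08), and had means of 0.403 FPKM in SPA and 0.239 in SA. LOC106502641, between TAF1B and YWHAQ, was listed at 0 in all 10 subcutaneous libraries. Its FPKM was 0.751, 0.737, 0.799, 0.858 and 0.799 in IMPA and 2.56, 3.63, 5.08, 4.04 and 3.72 in IMA, without overlap, and the log2 difference was 1.41.

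The other large differences of this kind follow. LOC108637299, between CDK8 and WASF3, had 0.702 ± 0.101 FPKM in IMPA and 2.66 ± 0.621 in IMA, a log2 difference of 1.09. LOC108634145, between CCAR1 and TET1, rose from 1.97 ± 0.211 to 5.10 ± 1.44 FPKM (1.01, adjusted p = 8.6e-04). LOC102177005, between AP3B2 and FSD2, rose from 8.16 ± 0.478 to 16.5 ± 2.51 FPKM (0.92, adjusted p = 7.5e-05) and reversed the order of the depots, from lower in IMPA than in SPA (-0.39, adjusted p = 2.1e-04) to higher in IMA than in SA (0.83, adjusted p = 6.9e-04). LOC108635434, not placed on a chromosome, rose from 10.4 ± 0.744 to 19.1 ± 1.44 FPKM (0.82, adjusted p = 1.3e-05), and LOC108637521, next to KLF10, from 0.655 ± 0.0874 to 1.85 ± 0.219 FPKM (0.78, adjusted p = 6.7e-05).

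The largest fall in the intramuscular cells belonged to TANGO2, XR_001917680.1, whose FPKM was 7.55, 7.01, 8.81, 7.20 and 6.04 in IMPA and 0, 0, 5.30, 0 and 5.64 in IMA. It was at 0 in 3 IMA libraries, and also in 2 SPA libraries and 1 SA library, and its fall (-1.97, adjusted p = 0.0316) lost its call when most single libraries were left out and turned to 0.5681 with the mapped share in the fit. LOC102189670, next to ZCCHC9, fell from 2.81 ± 0.769 to 1.32 ± 0.421 FPKM (-0.72, adjusted p = 0.00948). LOC102182363, between B4GALT6 and TTR, fell from 17.3 ± 1.39 to 10.3 ± 2.13 FPKM (-0.72, adjusted p = 0.00172). LOC106503307, next to STK10, fell from 2.17 ± 0.414 to 1.14 ± 0.426 FPKM (-0.58, adjusted p = 0.0166). LOC108635095 was the only 1 of the 6 largest falls that was also among the 6 largest falls of the subcutaneous cells. It measured 2.58, 2.94, 2.73, 4.43 and 2.53 FPKM in IMPA, 1.72, 1.29, 1.27, 1.90 and 0.655 in IMA, 2.42, 2.60, 2.70, 3.05 and 2.78 in SPA and 1.26, 0.833, 0.746, 1.299 and 1.83 in SA, and both falls were -0.78 on the log2 scale (adjusted p = 0.00687 and 0.00187).

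In the subcutaneous cells, which were compared as SA against SPA, 38 members rose and 40 fell, against 14.6% and 11.3% of all transcripts. The libraries did not overlap for 33 members that rose and 35 that fell, against 12.4% and 9.81%. The median log2 difference was -0.0039 over the members and 0.00497 over all transcripts. A single member had a called change of at least 1 on the log2 scale, against 2.76% of all transcripts. When each library was scaled to its FPKM sum without LNC_010228, a newly assembled lncRNA that held up to 29.1% of the sum, 29 members rose and 58 fell, a share of rises of 33.3% in place of 48.7%. The fit with the mapped share of reads gave 16 rises and 7 falls, against 6.55% and 4.34% of all transcripts, and cell cycle genes rose in the same libraries (10 of 10 listed).

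The largest called change was that of LOC106503672, between ERI1 and MFHAS1. XR_001297370.2 measured 3.63, 2.62, 2.87, 3.55 and 3.29 FPKM in SPA and 11.6, 15.2, 15.7, 15.3 and 12.8 in SA, and 3.99, 4.93, 4.201, 4.24 and 6.49 in IMPA and 5.05, 4.55, 4.73, 4.57 and 5.66 in IMA. SA stood over all other groups, and IMPA and IMA overlapped. The change was 1.85 (95% CI 1.62 to 2.08, adjusted p = 1.1e-06) in the subcutaneous and 0.05 (95% CI -0.21 to 0.31, adjusted p = 0.79) in the intramuscular cells. ERI1, an exonuclease of histone mRNA and small RNAs, rose in the subcutaneous cells too (0.62, adjusted p = 3.0e-04), and MFHAS1 had a difference of -0.14 (adjusted p = 0.289). Behind LOC106503672 came LOC108638525, next to CDCA4, a cell cycle gene, which rose from 2.47 ± 0.522 to 5.26 ± 0.805 FPKM (0.86, adjusted p = 0.00115) as CDCA4 did (0.56, adjusted p = 9.6e-05). XR_001919524.1 of DMWD, next to DMPK, rose from 1.75 ± 0.564 to 3.28 ± 0.188 FPKM (0.67, adjusted p = 0.00699), whereas the other member of DMWD was called lower in SA than in SPA. LOC106502586, next to TGFBRAP1, rose from 1.78 ± 0.502 to 3.26 ± 0.421 FPKM (0.63, adjusted p = 0.00785).

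LOC102180089 had the largest fall. It stands between PHACTR4 and RCC1, in human the interval of the small nucleolar RNA host gene SNHG3, and its identity was not tested. XR_309827.3 measured 84.9, 76.0, 69.9, 68.1 and 73.7 FPKM in SPA and 34.0, 33.9, 40.4, 37.6 and 39.0 in SA, and 42.7, 42.7, 46.7, 42.1 and 46.1 in IMPA and 38.8, 40.4, 49.0, 47.1 and 45.3 in IMA. All SPA libraries lay over all libraries of the other 3 groups, and IMA overlapped with IMPA (-0.00130, 95% CI -0.15 to 0.15, adjusted p = 0.992). The log2 difference of SA from SPA was -0.99 (95% CI -1.15 to -0.83, adjusted p = 5.7e-06). This fall ran against the rise of LOC102171315 in the same libraries, although both stand where human has host genes of small nucleolar RNAs. LOC108637888, next to FAM198B, fell in both cell types, from 2.53 ± 0.289 to 1.37 ± 0.148 FPKM (-0.57, adjusted p = 4.8e-04) and from 1.06 ± 0.0895 to 0.599 ± 0.218 FPKM (-0.38, adjusted p = 0.0205). LOC106501978, next to RNF220, fell from 3.64 ± 0.567 to 2.19 ± 0.137 FPKM (-0.53, adjusted p = 0.00266).

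**Figure D3:**
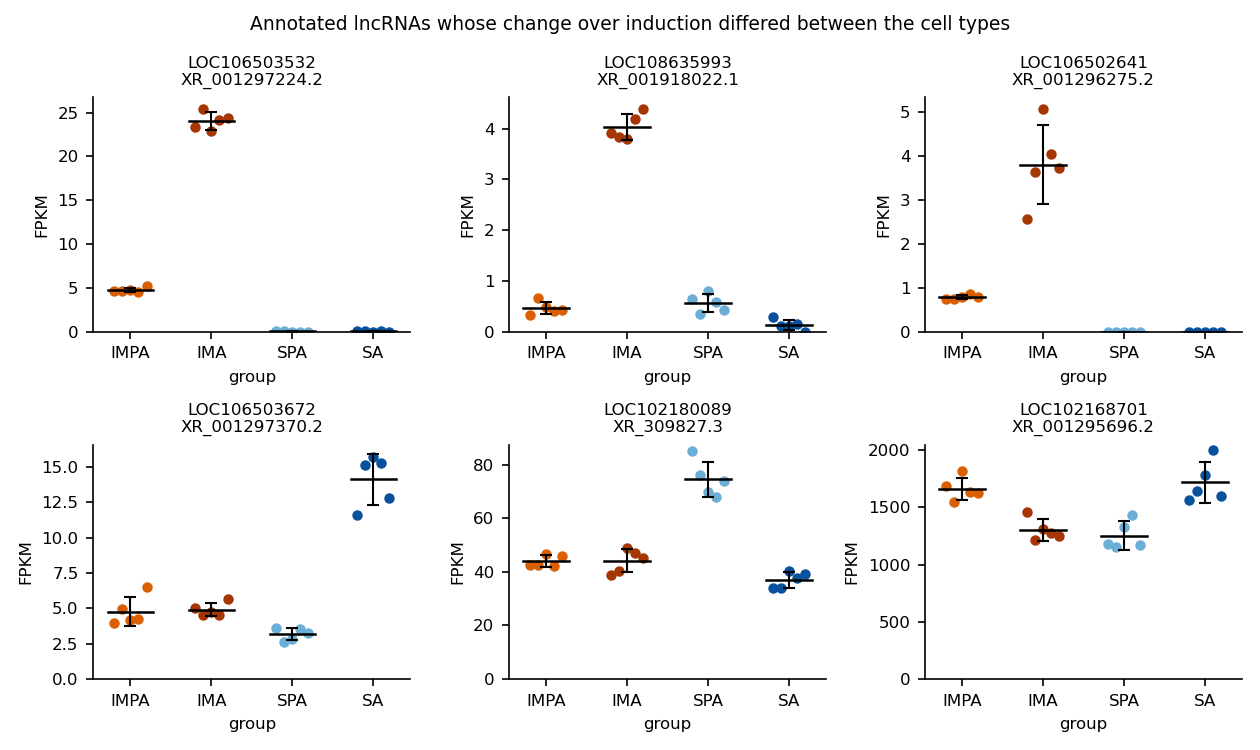
FPKM of 6 annotated lncRNAs in the 20 libraries by group; points are libraries, bars the mean and whiskers 1 SD (n = 5), and each y axis starts at 0. LOC106503532, LOC108635993 and LOC106502641 are highest in IMA, LOC106503672 is highest in SA, LOC102180089 is highest in SPA, and LOC102168701 goes down in the intramuscular and up in the subcutaneous cells.

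Whether induction acted differently on the lncRNAs of the 2 cell types was tested as the interaction of stage and cell type over the 20 libraries. It was called for 105 of 360 members, 64 with a more positive change in the intramuscular cells and 41 with a more positive change in the subcutaneous cells, against 11.2% and 19.8% of all transcripts (31.0% in either direction). An interaction of at least 1 on the log2 scale was called for 9 and 3 members, against 2.78% and 3.31% of all transcripts. The median was 0.0567 over the members and -0.0863 over all transcripts. Across the 360 members the changes of the 2 cell types had a Pearson correlation of -0.0011, and across all transcripts of 0.0527, as a description of these 10 and 10 libraries. Few members moved in both cell types. Rises in both were called for 12 members (2.38% of all transcripts), falls in both for 7 (3.88%), a rise in IMA with a fall in SA for 9 (1.63%) and a fall in IMA with a rise in SA for 5 (4.12%). In the fit with the mapped share of reads the interaction was called for 7 and 4 members, against 3.36% and 3.61% of all transcripts. The 6 positive interactions of lowest p belonged to LOC106503532 (2.11, adjusted p = 2.6e-13), LOC108635993 (2.24), LOC106502641 (1.41, which is its intramuscular change, as it is at 0 elsewhere), LOC108635434 (1.10, adjusted p = 1.9e-07), LOC102180089 (0.99, adjusted p = 3.1e-07) and LOC108637521 (0.95, adjusted p = 1.2e-06). Since LOC108635993 and LOC106502641 reached a mean of 1 FPKM through IMA, their place in this order is no test of their interaction. The lowest p of a negative interaction was that of LOC106503672 (-1.80, adjusted p = 4.3e-08), followed by LOC106502094, between FGF12 and CCDC50 (-0.65, adjusted p = 9.2e-08). That member fell from 20.4 ± 0.961 to 18.3 ± 0.627 FPKM in the intramuscular and rose from 13.5 ± 0.576 to 19.5 ± 1.06 FPKM in the subcutaneous cells.

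**Figure D4:**
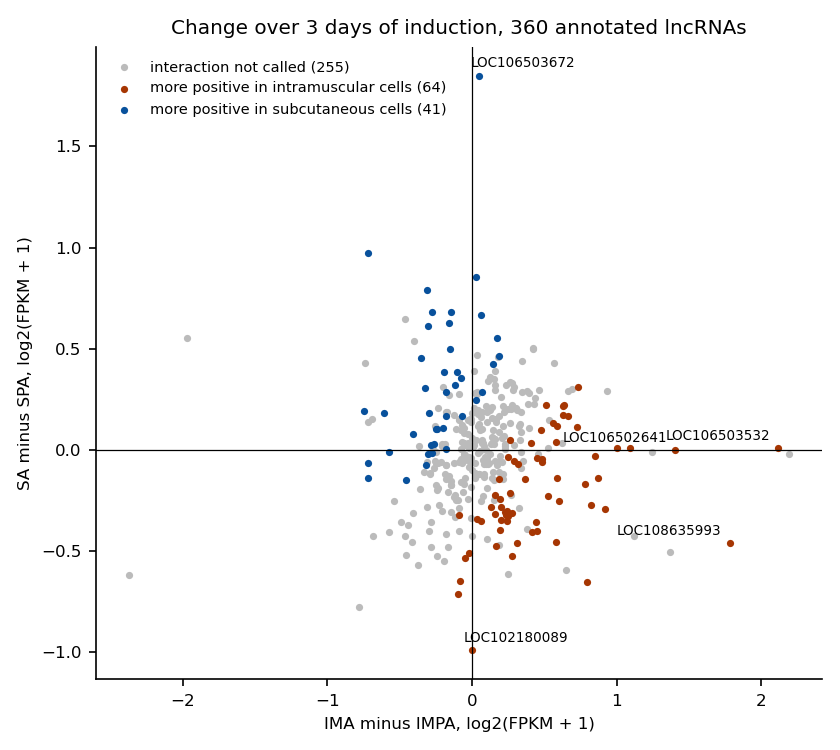
Each point is an annotated lncRNA; the x axis is its change in mean log2(FPKM + 1) from IMPA to IMA and the y axis from SPA to SA. The 105 coloured members have a called interaction, 64 more positive in the intramuscular and 41 more positive in the subcutaneous cells, and most of the largest changes lie along a single axis.

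Members near microRNA genes form a further group by position, since 23 member genes with 32 members have a microRNA gene within 3 places in the gene order. The members near MIR21, MIR100, MIR193A, MIR29A and MIR374A were described after their values were seen. LOC108638243 stands between VMP1 and TUBD1, next to MIR21, a microRNA induced in growth and fibrosis. XR_001919667.1 measured 3.55, 4.77, 3.81, 3.81 and 4.40 FPKM in IMPA, 5.03, 5.37, 4.96, 5.02 and 5.17 in IMA, 6.02, 6.55, 6.36, 6.38 and 6.58 in SPA and 4.25, 4.57, 4.41, 3.98 and 3.47 in SA. SPA was the highest group, and the stages moved in opposite directions without overlap, up in the intramuscular (0.28, adjusted p = 0.0171) and down in the subcutaneous cells (-0.53, adjusted p = 3.6e-04). VMP1, an autophagy protein whose transcript can run on into MIR21, had means of 45.8, 80.2, 105 and 67.9 FPKM in the same order of groups, and its changes were 0.80 (adjusted p = 7.0e-06) and -0.62 (adjusted p = 2.3e-06). The intramuscular change of LOC108638243 was -0.01503 in the fit with the mapped share of reads.

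LOC106502886 stands near MIR100, in a locus that elsewhere holds the host gene of miR-100 and let-7a. XR_001919237.1 had 21.3 ± 1.11, 24.2 ± 2.81, 21.8 ± 1.29 and 15.5 ± 2.53 FPKM in IMPA, IMA, SPA and SA, fell in the subcutaneous cells (-0.47, adjusted p = 0.00566) and was higher in IMA than in SA (0.61, adjusted p = 0.00135). LOC102171119, next to MIR193A, gave XR_311079.3 at 2.43 ± 0.123, 4.21 ± 1.07, 3.06 ± 0.604 and 1.96 ± 0.411 FPKM, with an interaction of 1.04 (adjusted p = 1.6e-04). Of the 3 members of LOC102184972, next to MIR29A, XR_001917949.1 fell in both cell types (-0.46, adjusted p = 0.00338 and -0.43, adjusted p = 0.00677), and the other 2 were called in neither. The microRNAs themselves were not analysed here.

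The depot differences of lncRNA genes were compared with those of the coding genes beside them. The neighbour's most abundant transcript was used, which gave 390 pairs of a member gene with a tested coding neighbour, from 253 member genes. Across these pairs the Pearson correlation of the log2 differences was 0.429 on day 0 and 0.404 on day 3, and across 13874 pairs of neighbouring coding genes 0.150 and 0.145. For the changes over induction it was 0.202 in the intramuscular and 0.212 in the subcutaneous cells, beside 0.0776 and 0.158 for coding pairs. Spearman's rho of the member pairs was 0.245 on day 0, 0.273 on day 3, 0.0916 in the intramuscular and 0.207 in the subcutaneous cells, beside 0.140, 0.160, 0.0813 and 0.0919 for coding pairs. These are descriptions across pairs that share libraries. A member between 2 coding genes enters with both, and a pair of tested coding genes is counted from each of its sides. Both kinds of pair include genes that met the limit of 1 FPKM through a single cell type. Such genes had to differ between the depots, here and in the shares that follow. For member genes called higher in IMPA, the neighbour was called higher too in 36 of 69 pairs (52.2%), where coding pairs gave 40.0%. For member genes higher in SPA it was 45 of 120 (37.5%), where coding pairs gave 31.5%. On day 3 the shares were 45.6% beside 31.2% for genes higher in IMA, and 39.0% beside 40.6% for genes higher in SA. For member genes called higher in IMA than in IMPA, the neighbour was called higher in 15 of 75 pairs and lower in 19 (20% and 25.3%), beside 17.9% and 24.8% of coding pairs. The difference of these shares was not tested. The libraries were made with strand information, but the setting used to count reads by strand is not given in the sources used here, so reads of overlapping neighbours cannot be told apart.

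**Figure D5:**
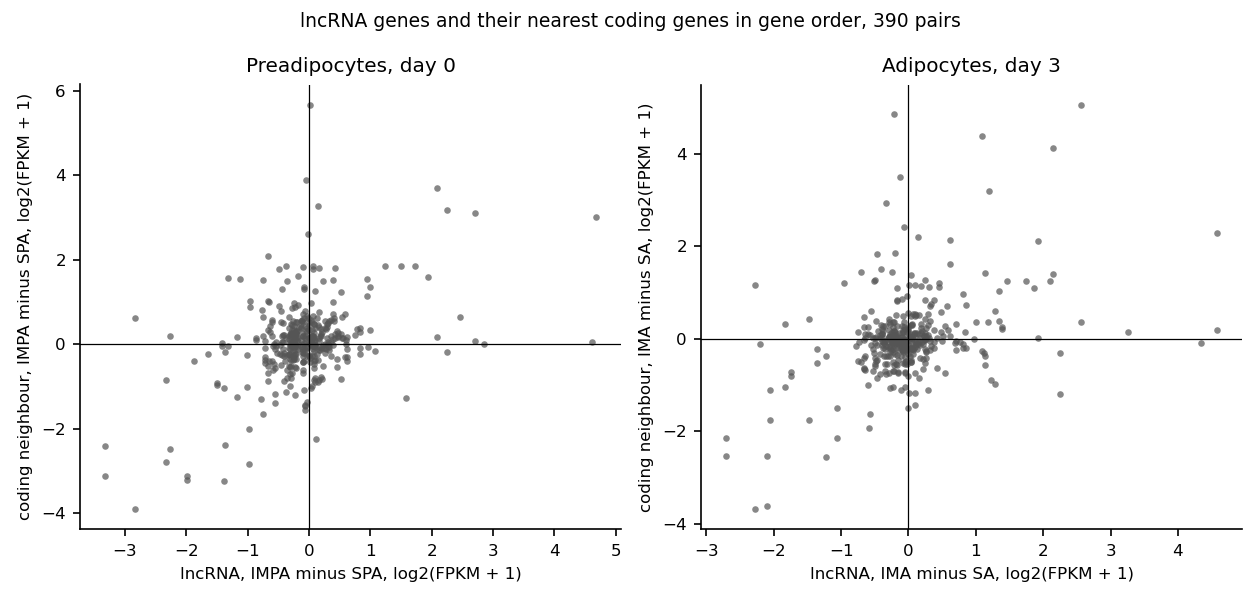
Each point is a member gene with a coding neighbour (390 pairs); the x axis is the depot difference of the lncRNA and the y axis that of the neighbour, both in log2(FPKM + 1), on day 0 (left) and day 3 (right). Pairs at the ends of the x axis lie mostly in the lower left and upper right corners, and most pairs lie near the origin.

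The study singled out 12 of the 360 members by co-expression or for qPCR, and a choice made on these libraries is not independent evidence of their direction. LOC106502219, LOC102169084, TTC9, LOC108634549, LOC102169338 and LOC108638533 are among these and were described above. The other 6 divided evenly by depot. LOC102169181, next to FUNDC1, had 3.71 ± 0.547, 4.96 ± 0.592, 1.65 ± 0.320 and 1.63 ± 0.279 FPKM in IMPA, IMA, SPA and SA, and was higher in the intramuscular cells by 0.83 (adjusted p = 9.8e-05) on day 0 and 1.18 (adjusted p = 4.8e-06) on day 3. LOC102171918, between CBLB and CCDC54, was higher in them by 1.07 (adjusted p = 7.7e-06) and 1.00 (adjusted p = 2.8e-07) and rose over induction in both cell types (0.42, adjusted p = 0.00582 and 0.50, adjusted p = 4.1e-04). LOC108636568, next to HRCT1, had 3.01 ± 0.208 and 2.37 ± 0.121 FPKM in IMPA and IMA and under 1 FPKM in every subcutaneous library. Higher in the subcutaneous cells were LOC102188967 (1.67 ± 0.225, 2.44 ± 0.281, 4.96 ± 0.274 and 4.41 ± 0.407 FPKM), LOC108634479 (3.95 ± 1.26, 2.97 ± 0.361, 6.92 ± 0.653 and 5.18 ± 0.414 FPKM) and LOC106503569 (5.94 ± 0.211, 5.14 ± 0.680, 9.98 ± 0.739 and 7.23 ± 0.375 FPKM, in the same order). LOC102188967 stands next to GPI, the glycolytic enzyme glucose-6-phosphate isomerase, which was higher in the subcutaneous cells as well (-1.25, adjusted p = 7.9e-09 and -0.62, adjusted p = 1.2e-05 for the intramuscular minus the subcutaneous cells). By qPCR the study reported that, over induction of the intramuscular cells, XR_001917557.1 of LOC102169084 fell and TTC9 rose. For the subcutaneous cells its qPCR gave falls of LOC106502219, LOC108634479 and LOC106503569. The study does not say whether the qPCR used the RNA of these libraries.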

How the data were processed

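Strand-specific (dUTP) libraries of cultured goat cells, 20 in number, were sequenced by the authors, aligned with HISAT2 2.0.4 to the ARS1 goat assembly and assembled with Scripture and Cufflinks. StringTie 1.3.1, Ballgown and Cuffdiff are named for the FPKM. The deposited tables hold FPKM per transcript, as the authors calculated it, for annotated non-coding RNAs, newly assembled lncRNAs and mRNAs. Fragment counts were not used here, so the depth behind a value is unknown. The 360 members and all gene lists were chosen with earlier results of these data known. The rule took annotated transcripts of lncRNA type with a mean of at least 1 FPKM.

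Differences were tested on log2(FPKM + 1) with limma 3.58.1 (moderated test with intensity trend, two-sided, R 4.3.3) in 18414 of 57378 transcripts, those that averaged 1 FPKM or more, with Benjamini-Hochberg adjustment over all of them. The pseudocount of 1 understates fold changes of low transcripts. Each pairwise comparison used its own 10 libraries, and the interaction used all 20. The fit was tested on simulated data. Named members were the 8 most abundant, the 6 largest rises and falls of each stage comparison and the 8 largest depot differences per cell type (called, without overlap), the 6 interactions of lowest p in each direction, all restricted members, those the study names, those nearest the limit of 1 FPKM, and those beside listed marker or patterning genes. Members of the RTL1 to DIO3 interval, of LOC102191314 and near microRNA genes were added after their values were seen. Coding neighbours and microRNA genes within 3 places came from the gene order of RefSeq (assembly ARS1.2), which is not the build of the files, so no coordinates are given, and sequences were not analysed here. A few items of the gene order are not reported here. Alternatives were other pseudocounts, filters, scalings and variance models, a replicate block, the mapped share as a covariate, adjustment over the annotated RNAs alone, FPKM summed per gene (chosen after seeing the data) and leaving out libraries. Figures were drawn with matplotlib 3.10.9 from tables made with pandas 2.3.3 in Python 3.11.15.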

Additional observations from a re-analysis of the deposited data

Results flagged for a closer look

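In 24 of 292 groups of 5 libraries examined, over 21 of 73 named members, 1 library lay farther from the other 4 than Dixon's 95% limit allows, and chance alone gives about 1 in 20 groups. In abundant members the gaps were small. LOC102190274 read 148 FPKM in IMPA4 (164 to 165 in the other IMPA libraries), LOC102177673 read 104 FPKM in SPA1 (at most 97.2) and LOC102178647 read 74.3 FPKM in SA3 (64.5 to 67.0). Among members with stage changes, the libraries that stood apart were IMPA5 for LOC108634145 (2.34 FPKM), IMPA4 for LOC108635095 (4.43), IMPA3 for LOC102182363 (14.8), IMPA1 for LOC108635434 (9.07), SA5 for LOC106503307 (2.94) and SA4 for LOC108638525 (3.85). Among members with depot differences they were IMPA2 for LOC108636127 (0.641 FPKM), IMPA1 for LOC108633928 (2.81), IMA5 for LOC102180967 (3.09) and IMPA1 for LOC106503063 (1.02). In these 4 members the libraries of the depots did not overlap on either day.

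In members restricted to, or nearly absent outside, the intramuscular cells, a single library of a subcutaneous group was above 0. LOC102169084 had 0.0662 FPKM in SPA1 and 0.00737 FPKM in SA3 for XR_001917557.1, and 0.0042 FPKM in SPA3 for XR_311252.3. LOC102169338 had 0.0216 FPKM in SPA5 and LOC102168946 had 0.119 FPKM in SA3. LOC102168946 also read 4.64 FPKM in IMPA5 against 1.15 to 1.86 FPKM in the other IMPA libraries. Near the X-linked microRNA genes, the transcripts of LOC102191314 moved apart in SPA2, where XR_001917554.1 read 4.94 FPKM and XR_001917551.1 was listed at 0, and XR_001917551.1 read 2.19 FPKM in IMA5. LOC102171119 read 2.87 FPKM in SA4 for XR_001297297.2 and 6.06 FPKM in IMA2 for XR_311079.3.

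The change over induction differed between intramuscular and subcutaneous cells, by the interaction term of limma, for 23 of the results given by name. On the positive side (a higher change in the intramuscular cells) the interactions on the log2 scale were 2.24 for LOC108635993, 2.11 for LOC106503532, 1.41 for LOC106502641, 1.10 for LOC108635434, 1.04 for XR_311079.3 of LOC102171119, 0.99 for LOC102180089, 0.95 for LOC108637521, 0.80 for LOC102179832, 0.80 for LOC108638243, 0.73 for LOC108635846, 0.64 for XR_001919237.1 of LOC106502886, 0.59 for LOC108635847, 0.57 for LOC108636127, 0.50 for LOC108638533, 0.38 for LOC108637679 and 0.33 for LOC102190854. On the negative side they were -1.80 for LOC106503672, -0.96 for C15H11orf31, -0.83 for LOC102171315, -0.81 for LOC102168701, -0.65 for LOC106502094, -0.58 for LOC102178647 and -0.49 for LOC102184183. Those of LOC108635993, LOC106502641 and LOC108638533 are values without a test, since these members reached a mean of 1 FPKM through IMA. For LOC108638533 the subcutaneous levels were at most 0.279 FPKM, where the 1 added before the log shrinks a change. The sign of its interaction therefore does not rank the fold changes of the cell types. That of LOC108635847 was -0.04878 in the fit with the mapped share of reads.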

How the results depend on the processing

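With each library's mapped share added to the fit, the members called higher and lower were 3 and 0 for IMA against IMPA, 16 and 7 for SA against SPA, 12 and 8 for IMPA against SPA, 39 and 35 for IMA against SA, and 7 and 4 for the interaction. In the study's alignment summary this share did not overlap between the groups of any pairwise comparison. It therefore cannot be told apart from stage or from cell type. Of 122 named results, 56 kept their call, 60 lost it and 6 reversed under this covariate. Of the 60, 23 had a size at least as large as without the covariate, 23 were smaller by less than 1.5 times and 14 by more. The reversed differences of IMA against IMPA were 0.5681 for TANGO2 (XR_001917680.1), 0.004768 for LOC106503563 (XR_001297259.2), -0.06658 for LOC102179832 (XR_001917232.1), -0.108 for LOC106502886 (XR_001919238.1) and -0.01503 for LOC108638243 (XR_001919667.1), and the reversed interaction was -0.04878 for LOC108635847 (XR_001917968.1).

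Equal replicate numbers did not mark libraries that deviated together (correlations of -0.0411 to 0.0591), and a replicate block gave 24 higher and 26 lower members for SA against SPA, with 114 of 122 named results unchanged in call and 8 lost. Every other setting kept the counts of called members within 1.5 times. Leaving out single libraries gave 56 to 64 and 34 to 41 members for IMA against IMPA, 30 to 43 and 31 to 38 for SA against SPA, 56 to 62 and 95 to 103 for IMPA against SPA, 63 to 71 and 77 to 86 for IMA against SA, and 56 to 66 and 34 to 41 for the interaction. Restricted intramuscular members numbered 5 to 6 when libraries were left out, 1 when the other cell type had to be at 0 and 10 when it had to lie under 0.5 FPKM. Restricted subcutaneous members numbered 1 to 1 when libraries were left out and 2 under 0.5 FPKM. A limit of 0.5 or 2 FPKM in place of 1 gave 556 or 224 members. The unknown depth limits what can be said of members listed at 0.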

Other observations

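Of the 305 member genes, 32 gave 2 or more members, and transcripts of one gene did not always move together. HNRNPF, the symbol of an RNA-binding splicing regulator, had the most, with 8 non-coding members, of which 2 fell over induction in the intramuscular cells, 2 were higher in IMPA than in SPA and none was called on day 3. LOC102176474, between NMUR1 and NCL, had 6 members, of which 1 rose in each cell type. LOC102186225 had 5 members, of which 1 was higher and 2 were lower in the intramuscular cells on each day. KLC1, the symbol of a kinesin light chain, had 4 members, of which 2 were higher in the intramuscular cells on day 0 and 2 on day 3. Reads shared by overlapping transcripts of one gene are divided between them by the quantification software, so the level of a single transcript is less certain than the sum over its gene. With FPKM summed over the member transcripts of each gene, IMA against IMPA gave 62 higher and 40 lower. The sums gave 37 and 36 for SA against SPA, 62 and 97 for IMPA against SPA, and 64 and 85 for IMA against SA. These counts are of 305 genes, whereas the counts by transcript are of 360 members.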
